A study of Mus musculus with 8 samples.

Results

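Smooth muscle cells and pericytes are the mural cells of blood vessels, and 10 genes that mark them were followed: Myh11, Acta2, Tagln, Cnn1, Myocd, Pdgfrb, Rgs5, Cspg4, Notch3 and Abcc9. They were chosen by name, as the rows of the count table whose Ensembl identifier carries one of these symbols in GENCODE M21. Each symbol matched 1 of the 54752 identifiers, and all 10 were among the 14665 genes with enough counts to be tested. The series asked how Carm1, an arginine methyltransferase, bears on heart maturation after birth, by RNA sequencing of mouse cardiomyocytes isolated on a Langendorff perfusion system. Every mouse was Carm1fl/fl, that is, both alleles carried sites at which Cre recombinase cuts. The KO mice had received AAV9-Cre, a virus that delivers Cre, and the controls AAV9-GFP. The 4 groups of 2 libraries were KO and control at the age labelled 3w (called 3w KO and 3w control) and KO and control at the age labelled 1w (1w KO and 1w control). The injection is labelled as postnatal day 3 in replicate 1 and day 4 in replicate 2 at 3w, and as day 1 and day 2 at 1w, alike in KO and control. These days count up by 1 down the list of samples within KO and within control, and whether they are the true days is not known. The labels name no promoter for Cre and describe no sorting step. The hearts are described as mosaic, and which cell types the virus reached, mural cells among them, is not given. Mice with Cre but without floxed alleles were not among the groups, so an effect of Cre itself and loss of Carm1 cannot be told apart. The labels do not say outright that the 2 libraries of each group are separate mice, and p-values cover no more than the spread between them.

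Mural cells wrap the endothelial tube: smooth muscle cells ring arteries and veins and contract, and pericytes sit singly on capillaries. Their contractile genes are switched on by serum response factor, which binds a sequence called the CArG box, together with its coactivator myocardin. Pericytes are recruited by PDGF-B from endothelial cells, which acts on the receptor PDGFRβ, and the receptor Notch3 supports the maturation of arterial smooth muscle. Some of these genes are not confined to vessels. Immature heart muscle cells make smooth muscle α-actin, and heart muscle also uses myocardin and the channel subunit encoded by Abcc9.

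The stretches before the starts of 4 members are shown because the contractile and pericyte genes differed in how they moved, and because the CArG box is the best known element of the contractile set. RefSeq's table on GRCm38.p6 held a window for 6 of the 10 members, and Myh11, Tagln, Myocd and Pdgfrb were not among them. The 250 bases before each start were searched on both strands for the CArG box, for CATTCC (the MCAT element) and for TGGGAA (the core bound by RBPJ, the DNA-binding partner of Notch). No window of the 6 held a full CArG box, against 1.37% of 25165 windows of the same length over all genes. Acta2 held the pair of CArG boxes with 1 C or G in the core that is its textbook feature, a form added to the search after the sequence was read and present in 7.19% of all windows. CATTCC occurred in the windows of Acta2 and Abcc9 (12.1% of all windows), and TGGGAA in the same pair (21.2%). The second CArG-type box of Acta2 overlaps its TGGGAA, and the MCAT and RBPJ letters of Abcc9 overlap each other. Capitals mark the letters of these motifs, and bases that GENCODE places in an exon are left out, except in the 30-base sites of Acta2.
Acta2, 84 to 75 bases before the start with 10 bases on either side, chr19:34255438-34255467, minus strand: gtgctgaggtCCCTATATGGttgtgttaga
Acta2, 34 to 25 bases before the start with 10 bases on either side, chr19:34255388-34255417, minus strand: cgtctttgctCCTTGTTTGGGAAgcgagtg
Cnn1, chr9:22099003-22099215, plus strand: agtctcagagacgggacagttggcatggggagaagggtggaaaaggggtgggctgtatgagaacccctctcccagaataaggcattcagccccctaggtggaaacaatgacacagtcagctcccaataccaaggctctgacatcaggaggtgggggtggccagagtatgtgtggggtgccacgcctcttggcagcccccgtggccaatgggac
Rgs5, chr1:169655251-169655500, plus strand: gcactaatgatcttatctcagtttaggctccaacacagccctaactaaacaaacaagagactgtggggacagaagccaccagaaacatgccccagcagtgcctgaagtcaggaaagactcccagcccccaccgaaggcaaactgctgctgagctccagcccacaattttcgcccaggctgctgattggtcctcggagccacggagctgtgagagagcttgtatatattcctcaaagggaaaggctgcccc
Abcc9, chr6:142702316-142702524, minus strand: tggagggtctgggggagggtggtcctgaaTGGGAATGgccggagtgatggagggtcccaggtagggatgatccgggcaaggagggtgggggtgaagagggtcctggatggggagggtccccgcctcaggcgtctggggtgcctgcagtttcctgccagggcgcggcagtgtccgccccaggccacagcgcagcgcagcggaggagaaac
The windows of Cnn1 and Rgs5 held none of the searched letters, which says nothing about whether the factors act on these genes.

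On GRCm38 the contractile members are Myh11 (ENSMUSG00000018830, chromosome 16, 14194535 to 14291372), Acta2 (ENSMUSG00000035783, chromosome 19, 34241090 to 34255590), Tagln (ENSMUSG00000032085, chromosome 9, 45929619 to 45936058) and Cnn1 (ENSMUSG00000001349, chromosome 9, 22099216 to 22109630). The coactivator gene Myocd (ENSMUSG00000020542) lies on chromosome 11, 65176561 to 65269989. The pericyte set comprises Pdgfrb (ENSMUSG00000024620, chromosome 18, 61045150 to 61085061), Rgs5 (ENSMUSG00000026678, chromosome 1, 169655501 to 169695813), Cspg4 (ENSMUSG00000032911, chromosome 9, 56865033 to 56899870), Notch3 (ENSMUSG00000038146, chromosome 17, 32120820 to 32166852) and Abcc9 (ENSMUSG00000030249, chromosome 6, 142587862 to 142702315). Values are for whole genes, exons and UTRs together. Exons of Tagln are shared with other genes over 67.9% of their 1988 bases, by Gm48529 and Pcsk7 on the opposite strand. The strand setting of the counting is not given in the sources used here, and reads in those bases may not have been counted for Tagln. Its level is uncertain, and it rested on 318 counts over the 8 libraries. Notch3 shares 6.03% and Abcc9 1.89% of their exon bases with antisense genes.

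Library totals ran from 20818285 to 53671626 counts, of which 40.7 to 47.8% came from mitochondrially encoded genes. Carm1 stood at 17.3 and 17.8 CPM in 3w KO, against 39.9 and 39.3 CPM in 3w control, and at 22.2 and 22.4 CPM in 1w KO, against 40.5 and 39.1 CPM in 1w control. CPM, used throughout, are counts scaled to a common library size by edgeR's TMM method. Summed counts of 4 Y-linked genes were 3 and 2 in 3w KO, against 6765 and 4814 in 3w control, and 5025 and 4282 in 1w KO, against 1 and 0 in 1w control. Within an age, KO and presence of Y-linked transcripts cannot be told apart, and neither can age and those transcripts within KO or within control. The difference between the KO effects of the 2 ages follows the same split. Of 10 cardiomyocyte markers 8 were detected, with Actc1 and Pln listed at 0 in every library, and their sum was 62916 to 63741 CPM in 3w KO, 77609 to 81722 in 3w control, 37509 to 37829 in 1w KO and 39996 to 40959 in 1w control.

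Per kilobase of exon, Acta2 was the most abundant member in every group and Tagln or Cnn1 the least. Acta2 averaged 633 CPM per kb in 3w KO, 324 in 3w control, 786 in 1w KO and 503 in 1w control. Abcc9 and Rgs5 held the next places, between 16.6 and 45.7 CPM per kb, and Myocd followed at 15.2 in 3w KO, 11.98 in 3w control and 1w KO, and 18.5 in 1w control. Smooth muscle myosin Myh11 reached only 3.04 CPM per kb in 3w KO, 0.351 in 3w control, 6.11 in 1w KO and 2.68 in 1w control. Cnn1 stood at 0.564, 0.0239, 2.22 and 0.963 CPM per kb in the same groups. The α-actin gene thus lay far above smooth muscle myosin per length, in libraries from isolated cardiomyocytes. Actc1, the cardiac α-actin gene, is listed at 0 counts in every library, though it shares 0 exon bases with other genes. The reason is not known, and whether it bears on the Acta2 values was not tested. In bulk samples, fewer cells of a type and less RNA per cell cannot be told apart.

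**Figure D1:**
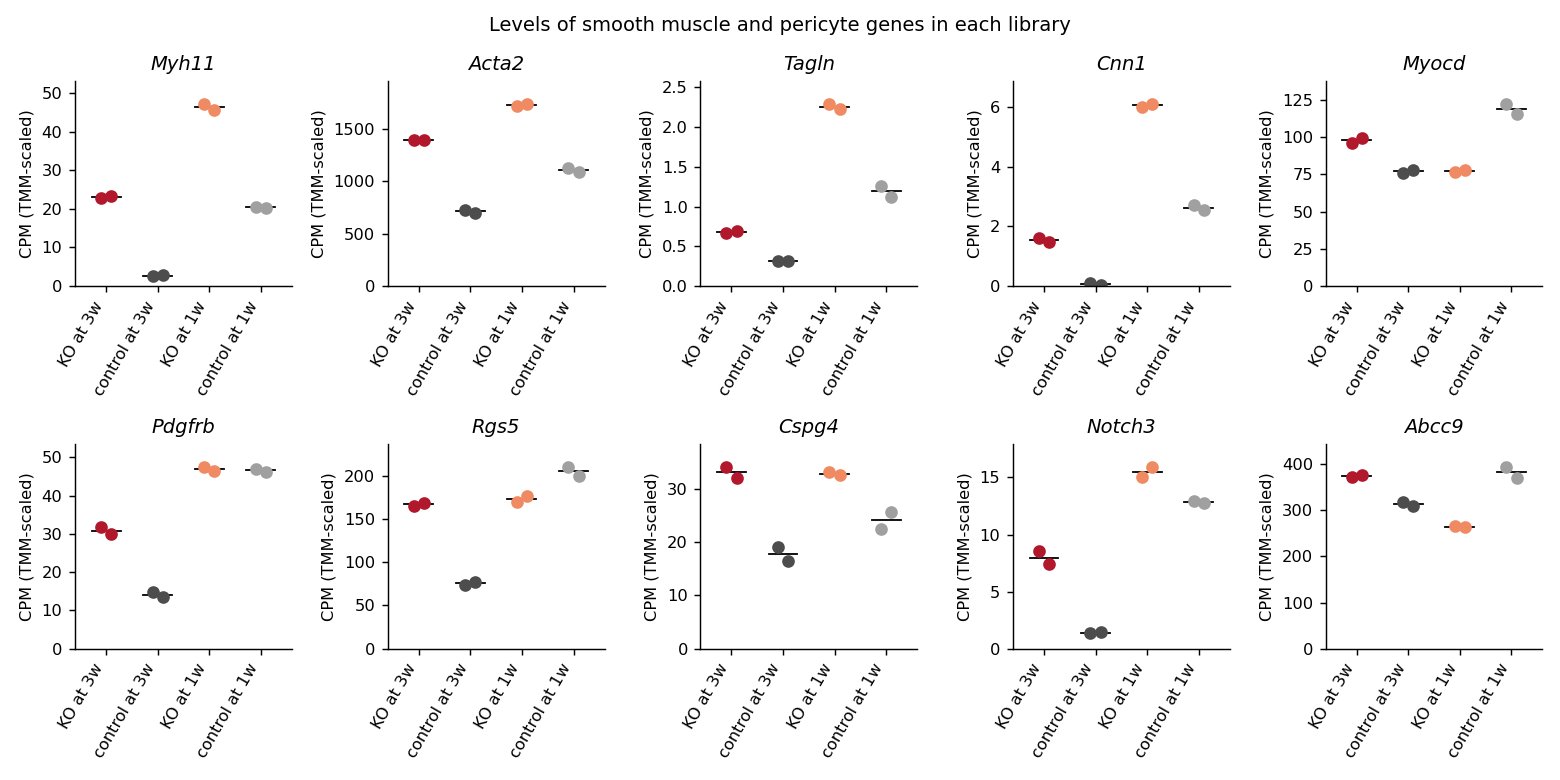
TMM-scaled CPM of each member (vertical axes, each from 0) in the 2 libraries of each of the 4 groups; points are libraries and lines are group means. The 3w control is the lowest group for 8 of the 10 genes, and 1w KO for Myocd and Abcc9, where it overlaps 3w control for Myocd.

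The 3w control had the lowest mean for 8 of the 10 members, against 34.2% of all genes tested. The exceptions were Myocd and Abcc9, both lowest in 1w KO, and for Myocd the libraries of that group overlapped those of 3w control. 1w KO had the highest mean for 6 members, 1w control for 3 and 3w KO for Cspg4 alone. The span between the highest and lowest group mean was 17.4-fold for Myh11 and 11.0-fold for Notch3, but 1.54-fold for Myocd and 1.45-fold for Abcc9. It was wider for Cnn1, whose lowest mean rests on 4 and 1 counts. Neighbouring groups in this order overlapped in 4 of 30 cases: Myocd as above, Pdgfrb in 1w KO and 1w control, Cspg4 in 3w KO and 1w KO, and Abcc9 in 1w control and 3w KO. Shares of all genes were not computed for this order or for the highest mean. In the comparisons of KO within an age and of the ages, groups did not overlap for 70.6 to 83.3% of all genes.

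At 3w, all 10 mural genes were higher in KO, 6 of them at least 2-fold. Over all genes tested, 49.2% were called in either direction, 24.4% were called higher, and 7.59% were called higher and at least 2-fold. A call is an adjusted p under 0.05 in the quasi-likelihood test of edgeR, with the Benjamini-Hochberg method run across every gene tested. The median log2 fold change of the members was 1.12, beside 0.01 over all genes. Changes below are log2 fold changes ± SE from this test, and a log2 value of 1 is a doubling.

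Cnn1 and Myh11 had the widest differences of the 10 at 3w. Myh11, the myosin heavy chain of smooth muscle, had 22.9 and 23.3 CPM in 3w KO, against 2.58 and 2.76 CPM in 3w control (3.12 ± 0.095, adjusted p = 2.5e-37, edgeR). Cnn1, which encodes the thin filament protein calponin, had 1.62 and 1.46 CPM in KO, against 0.0954 and 0.0353 CPM in control. The control value rests on 4 and 1 counts. On summed counts Cnn1 was 21.7-fold higher in KO (95% counting interval 8.95 to 68.4, counting error only), and the fitted change was 4.37 ± 0.42 (adjusted p = 7.3e-14, edgeR) and 5.30 without 3w control replicate 1. Acta2 had 1389 and 1393 CPM in KO, against 728 and 696 CPM in control (0.97 ± 0.028, adjusted p = 1.1e-38, edgeR). Tagln, the actin-binding protein SM22α, had 0.671 and 0.697 CPM in KO, against 0.310 and 0.318 CPM in control, on 19, 20, 13 and 9 counts (1.12 ± 0.38, adjusted p = 0.011, edgeR). That call was lost with DESeq2 (adjusted p = 0.078), without 3w KO replicate 2 (adjusted p = 0.057, edgeR) and without 3w control replicate 1 (adjusted p = 0.072, edgeR). The KO libraries lay above the control libraries for each of these genes, and at this age the groups did not overlap for 72.6% of all genes. Myocd, the coactivator of the contractile set, differed far less, with 96.0 and 99.4 CPM in KO and 75.8 and 78.1 CPM in control (0.35 ± 0.040, adjusted p = 5.6e-11, edgeR).

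Among the pericyte genes at 3w, Notch3 differed most. It had 8.58 and 7.39 CPM in KO, against 1.36 and 1.45 CPM in control (2.51 ± 0.14, adjusted p = 2.8e-23, edgeR). Pdgfrb, the receptor through which pericytes are recruited, had 31.8 and 29.9 CPM in KO, against 14.7 and 13.4 CPM in control (1.12 ± 0.064, adjusted p = 2.0e-23, edgeR). Rgs5, a brake on G protein signalling, had 165 and 169 CPM in KO, against 74.2 and 76.9 CPM in control (1.14 ± 0.037). Both receptors and Rgs5 were thus at least doubled, and no library overlapped. Cspg4, the NG2 proteoglycan of the pericyte surface, had 34.1 and 32.0 CPM in KO, against 19.0 and 16.4 CPM in control (0.89 ± 0.066). Abcc9, a sulfonylurea receptor of ATP-sensitive potassium channels, had 372 and 375 CPM in KO, against 318 and 308 CPM in control (0.25 ± 0.032, adjusted p = 7.7e-10, edgeR). Abcc9 and Myocd had the smallest changes of the 10.

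At 1w the set did not move one way. Of the 10 members 6 were higher in KO (Myh11, Acta2, Tagln, Cnn1, Cspg4 and Notch3), 3 were lower (Myocd, Rgs5 and Abcc9) and Pdgfrb was not called, against 23.0% of all genes called higher, 20.0% called lower and 43.0% called either way. Of the 10 only Myh11 and Cnn1 were at least 2-fold higher, as were 4.92% of all genes. The median log2 fold change was 0.35, beside 0.02 over all genes.

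The 4 contractile genes were all higher in 1w KO. Myh11 had 47.2 and 45.6 CPM in KO, against 20.5 and 20.3 CPM in control (1.19 ± 0.057, adjusted p = 7.8e-27, edgeR). Cnn1 had 6.02 and 6.11 CPM in KO, against 2.73 and 2.54 CPM in control (1.21 ± 0.15, adjusted p = 2.4e-10, edgeR). Acta2 had 1718 and 1735 CPM in KO, against 1124 and 1087 CPM in control (0.64 ± 0.027). Tagln had 2.29 and 2.22 CPM in KO, against 1.26 and 1.12 CPM in control (0.94 ± 0.22, adjusted p = 0.00028 in edgeR and 0.060 in DESeq2). The KO libraries lay above the control libraries for all 4, at an age where the groups did not overlap for 70.6% of all genes. Myocd went the other way at this age, with 76.2 and 77.7 CPM in KO and 122 and 115 CPM in control (-0.62 ± 0.039, adjusted p = 2.4e-21, edgeR).

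The pericyte genes split at 1w. Cspg4 was higher in KO, with 33.0 and 32.6 CPM against 22.5 and 25.6 CPM in control (0.44 ± 0.062, adjusted p = 3.7e-08, edgeR). Notch3 was slightly higher, with 15.03 and 15.96 CPM in KO and 12.9 and 12.7 CPM in control (0.27 ± 0.080, adjusted p = 0.0043, edgeR). Its call was lost with DESeq2 (adjusted p = 0.16) and without 1w KO replicate 2 (adjusted p = 0.068, edgeR). Rgs5 had 169 and 176 CPM in KO, against 211 and 199 CPM in control (-0.24 ± 0.035, adjusted p = 2.8e-08, edgeR). Abcc9 had 265 and 264 CPM in KO, against 394 and 370 CPM in control (-0.53 ± 0.032, adjusted p = 5.7e-22, edgeR). For Pdgfrb the groups overlapped, at 47.6 and 46.4 CPM in KO and 47.1 and 46.2 CPM in control, with a log2 fold change of 0.01 and a 95% interval of -0.08 to 0.11.

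**Figure D2:**
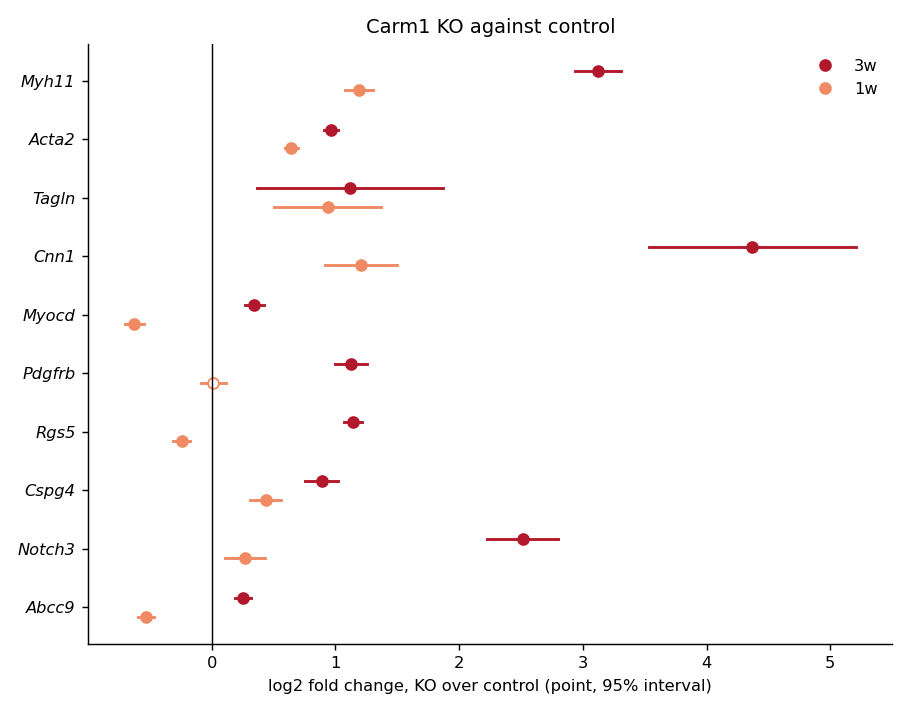
Log2 fold change of KO over control (horizontal axis) for each member at 3w and at 1w, with 95% intervals derived from edgeR's test. Filled points passed an adjusted p of 0.05 and the open point did not. All 10 points at 3w lie right of 0, while at 1w Myocd, Rgs5 and Abcc9 lie left of 0 and Pdgfrb is open at 0.01.

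The KO effect at 3w less that at 1w was above 0 for all 10 members and called for 9, against 17.6% of all genes called in that direction and 35.6% called either way. The largest differences were for Cnn1 (3.16 ± 0.49, or 4.11 without 3w control replicate 1), Notch3 (2.24 ± 0.17) and Myh11 (1.93 ± 0.12). The pericyte genes Rgs5 (1.39 ± 0.051) and Pdgfrb (1.11 ± 0.081) followed. Next came Myocd (0.97 ± 0.056) and Abcc9 (0.79 ± 0.046). Rgs5, Myocd and Abcc9 were called higher in KO at 3w and lower in KO at 1w. Cspg4 (0.45 ± 0.091) and Acta2 (0.32 ± 0.039) differed least among the called genes, with an adjusted p of 5.7e-05 and 3.0e-10 in edgeR. For Tagln the difference was 0.18 with a 95% interval of -0.68 to 1.04. This contrast sets the same libraries apart as the Y-linked counts do, so an age-dependent KO effect and a difference that follows those transcripts cannot be told apart.

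The mean of the 2 KO effects has the Y-linked transcripts present in 1 of the 2 groups on either side. That balances a difference that follows those transcripts only where it is equal at both ages. One that changes with age cannot be told apart from the KO effect here. In this contrast 8 members were higher in KO and 2, Myocd and Abcc9, were lower, against 27.5% of all genes called higher, 25.3% called lower and 52.8% called either way. Myh11 (2.16 ± 0.055), Cnn1 (2.79 ± 0.22), Notch3 (1.39 ± 0.083) and Tagln (1.03 ± 0.22) were at least 2-fold higher, as were 5.63% of all genes. Acta2 (0.80 ± 0.019), Cspg4 (0.66 ± 0.045), Pdgfrb (0.57 ± 0.041) and Rgs5 (0.45 ± 0.025) rose by less. Myocd and Abcc9 both stood at -0.14, and both turned to 0.04 when libraries were scaled by total counts alone. All 4 KO libraries lay above all 4 control libraries for Myh11, Acta2 and Cspg4, against 5.48% of all genes. An additive fit of age and KO, in which the difference between the ages counts as noise, called 5 members in place of 10. Myh11, Acta2, Tagln, Cnn1 and Cspg4 stayed called there, with Cnn1 at 1.84, and Myocd, Pdgfrb, Rgs5, Notch3 and Abcc9 did not.

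With age, 6 members were lower at 3w than at 1w in KO libraries and 2 were higher. Over all genes, 34.6% were called lower, 33.2% higher and 67.9% either way. The median of the members was -0.46, beside -0.02 over all genes. Cnn1 (-1.97 ± 0.16), Tagln (-1.72 ± 0.25), Myh11 (-1.01 ± 0.056), Notch3 (-0.95 ± 0.088), Pdgfrb (-0.61 ± 0.053) and Acta2 (-0.31 ± 0.027) fell. Myocd rose by 0.35 ± 0.040 and Abcc9 by 0.50 ± 0.032, but scaling by total counts alone gave -0.08 and 0.07 and neither was called. Rgs5 was not called, at 165 and 169 CPM in 3w KO and 169 and 176 CPM in 1w KO (95% interval of the log2 fold change -0.12 to 0.02). It was called lower without the low-count filter (-0.09) and with total counts alone (-0.48). Cspg4 was not called either, at 34.1 and 32.0 CPM in 3w KO and 33.0 and 32.6 CPM in 1w KO (-0.11 to 0.13), and turned to -0.42 with total counts alone.

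In control libraries every member was lower at 3w than at 1w. Over all genes, 36.0% were called lower, 34.9% higher and 70.8% either way. The median log2 fold change of the members was -1.58, beside -0.03 over all genes. The steepest changes of 3w against 1w in control were those of Cnn1 (-5.13 ± 0.36, or -6.06 without 3w control replicate 1), Notch3 (-3.20 ± 0.13) and Myh11 (-2.94 ± 0.096). For Cnn1, summed counts were 5 at 3w and 158 at 1w. Tagln changed by -1.90 ± 0.33, Pdgfrb by -1.72 ± 0.060 and Rgs5 by -1.44 ± 0.037. Acta2 (-0.63 ± 0.027), Myocd (-0.63 ± 0.040), Cspg4 (-0.44 ± 0.069) and Abcc9 (-0.29 ± 0.032) changed by less than 2-fold. Both age contrasts run along the split in Y-linked transcripts, and the labelled injection days differ between the ages, so these cannot be told apart from age. The age contrasts share their libraries with the KO contrasts, so the smaller fall in KO and the higher level in 3w KO are one observation and not a pair of them.

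**Figure D3:**
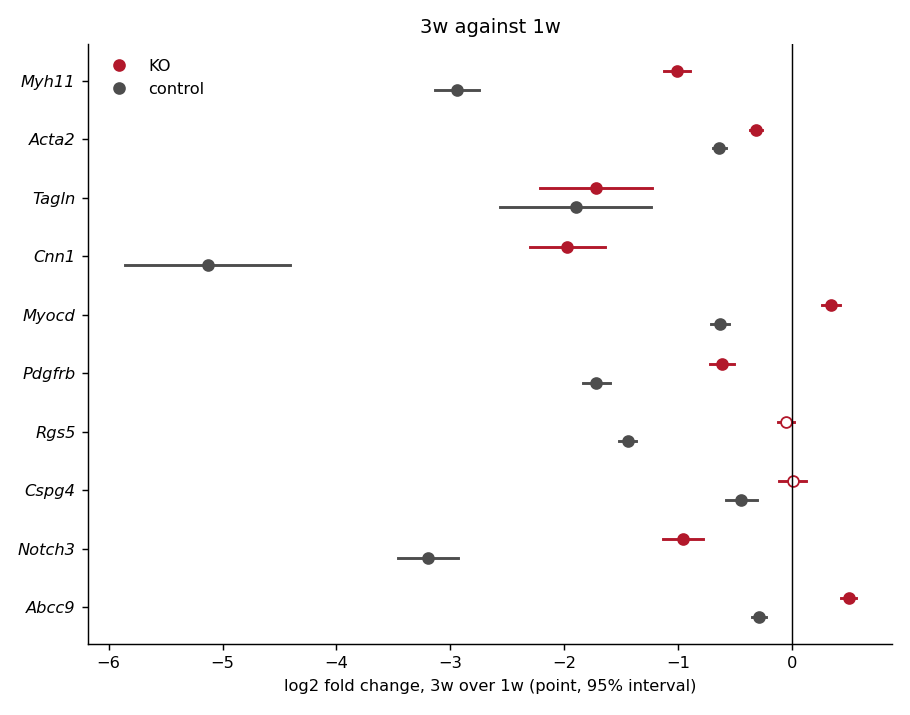
Log2 fold change of 3w over 1w (horizontal axis) for each member in KO and in control, with 95% intervals derived from edgeR's test. Filled points passed an adjusted p of 0.05. All control points lie left of 0, from -0.29 for Abcc9 to -5.13 for Cnn1, and each KO point lies right of its control point, with overlapping intervals for Tagln.

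Of 15 other contractile smooth muscle genes, 9 were higher and 3 lower in 3w KO (median 1.49), against 24.4% and 24.8% of all genes. At 1w 11 were higher and 1 lower (median 0.27), against 23.0% and 20.0% of all genes. Tropomyosin Tpm2 averaged 21.5 ± 0.14 CPM in 3w KO and 3.03 ± 0.29 CPM in 3w control (SD, n = 2), a log2 fold change of 2.80. The actin filament nucleator gene Lmod1 averaged 2.19 ± 0.20 CPM in 3w KO and 0.248 ± 0.15 CPM in 3w control (3.24). The integrin gene Itga8 averaged 2.47 ± 0.15 CPM in 3w KO and 0.556 ± 0.11 CPM in 3w control (2.18). At 1w the smooth muscle regulatory light chain gene Myl9 averaged 223 ± 1.8 CPM in KO and 94.4 ± 4.6 CPM in control (1.24), Tpm2 changed by 1.23 and Lmod1 by 1.03. Each of these passed the test, with an adjusted p of at most 4.1e-06 in edgeR. The 3 lower genes at 3w were Smtn (-0.34 ± 0.037), Synpo2 (-0.18 ± 0.036) and Smoc1 (-0.43 ± 0.18). Smtn averaged 103 ± 1.7 CPM in 3w KO and 130 ± 0.77 CPM in 3w control. Pcp4l1, at 293 ± 5.5 CPM in 3w KO and 282 ± 9.5 CPM in 3w control, was not called at 3w. The lower gene at 1w was Ptgir (-0.84 ± 0.31). In KO libraries 11 of the 15 were lower at 3w than at 1w and 2 were higher, and in control libraries 12 were lower and 2 higher. Over all genes, 34.6% were called lower in KO and 36.0% in control.

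The list of serum response factor and genes that act with it or oppose it held 10 genes, of which 9 could be tested. The gene of the factor itself, Srf, is listed at 0 counts in every library, so its level is not described by these data. Of the 9, 4 were higher and 2 lower in KO at 3w (median 0.49), against 24.4% and 24.8% of all genes. At 1w 3 were higher and 2 lower (median 0.05), against 23.0% and 20.0% of all genes. The LIM protein genes Csrp1 (1.10 ± 0.068 at 3w) and Csrp2 (0.71 ± 0.063 at 3w and 0.55 ± 0.050 at 1w) rose. Klf4, a factor that represses the contractile genes, rose at 3w (0.67 ± 0.067). Fhl2, the most abundant of the 9, averaged 861 ± 3.3 CPM in 3w KO and 1355 ± 38 CPM in 3w control (-0.65 ± 0.028). Tead1, which binds the MCAT element, fell at 3w (-0.17 ± 0.033) and 1w (-0.43 ± 0.033), and Foxo4 fell at 1w (-0.41 ± 0.063).

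Of 14 other pericyte genes tested, 13 were higher in 3w KO and 1 was not called (median 1.16), against 24.4% of all genes called higher. At 1w 5 were higher, 3 lower and 6 not called (median 0.14), against 23.0% of all genes called higher and 20.0% called lower. The nitric oxide receptor subunit gene Gucy1b1 averaged 6.77 ± 0.061 CPM in 3w KO and 2.13 ± 0.48 CPM in 3w control (1.71). Tbx2 changed by 1.71 ± 0.18 and Colec11 by 1.53 ± 0.19 at 3w. At 1w, Steap4 was lower in KO (-0.69 ± 0.093) and the aminopeptidase gene Anpep higher (0.55 ± 0.084). In KO libraries 12 were lower at 3w than at 1w and in control libraries all 14 were, against 34.6% and 36.0% of all genes. The adhesion gene Mcam changed most in both (-2.29 ± 0.052 in KO, -3.33 ± 0.061 in control).

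In the PDGF list, the ligand gene Pdgfb averaged 13.3 ± 0.17 CPM in 3w KO and 5.87 ± 0.059 CPM in 3w control (1.18 ± 0.091, adjusted p = 1.7e-17, edgeR). At 1w it averaged 29.3 ± 0.61 CPM in KO and 25.2 ± 1.4 CPM in control (0.21, adjusted p = 0.0029, edgeR), a gene outside the rule for named genes at that age and given for its role as the ligand of Pdgfrb. Of the 5 genes of that list 3 were higher and 2 lower in 3w KO, against 24.4% and 24.8% of all genes. At 1w 3 were higher and 1 lower, against 23.0% and 20.0% of all genes. The lower ones were Pdgfc (-0.88 ± 0.31) and Pdgfa (-0.29 ± 0.086) at 3w, and Pdgfa (-0.32 ± 0.068) at 1w. Pdgfra was higher at 3w (0.88 ± 0.081) and 1w (0.68 ± 0.070), and so was Pdgfd (0.32 ± 0.12 and 0.27 ± 0.11). In the Notch list, 10 of 12 tested genes were higher and 1 lower in 3w KO (median 0.65). At 1w 6 were higher and 1 lower (median 0.28), beside the same shares of all genes as above. The lower ones were Hey2 at 3w (-0.56 ± 0.11) and Hes1 at 1w (-0.27 ± 0.074). The target gene Heyl averaged 9.26 ± 1.3 CPM in 3w KO and 3.36 ± 0.40 CPM in 3w control (1.48 ± 0.12). The ligand gene Jag1 changed by 1.24 ± 0.13 at 3w and 0.64 ± 0.089 at 1w, and the target gene Hey1 by 1.26 ± 0.17 and 0.66 ± 0.12. The endothelium also makes Notch ligands, receptors and targets.

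The channel partners of Abcc9 went in its direction at both ages. The pore gene Kcnj8, paired with Abcc9 in mural cells and also on the pericyte list, averaged 7.03 ± 0.011 CPM in 3w KO and 4.06 ± 0.74 CPM in 3w control (0.76 ± 0.12). At 1w it averaged 10.5 ± 0.28 CPM in KO and 12.5 ± 0.14 CPM in control (-0.25 ± 0.087). Kcnj11, the pore gene of heart muscle, averaged 142 ± 1.7 CPM in 3w KO and 123 ± 4.8 CPM in 3w control (0.21 ± 0.037). At 1w it averaged 79.3 ± 2.5 CPM in KO and 108 ± 1.2 CPM in control (-0.45 ± 0.038). The sizes for Kcnj11 were thus near those of Abcc9, 0.25 at 3w and -0.53 at 1w. With age the pores parted, as Kcnj8 was lower at 3w than at 1w in both KO (-0.59 ± 0.098) and control (-1.60 ± 0.11), and Kcnj11 was higher in both KO (0.84 ± 0.038) and control (0.18 ± 0.038). Abcc9 was lower at 3w than at 1w in control (-0.29 ± 0.032), opposite to Kcnj11. In KO, Abcc9 was higher at 3w, as Kcnj11 was (0.50 ± 0.032 for Abcc9, or 0.07 and not called with total counts alone). The third listed subunit, Abcc8, changed by 0.14 ± 0.046 at 3w and -0.21 ± 0.047 at 1w.

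Markers of other cell types moved in the same libraries. Over all genes, 24.4% were called higher in KO and 24.8% lower at 3w, and 23.0% and 20.0% at 1w. Of 9 fibroblast markers tested all were higher in KO at both ages. Their summed level was 801 to 809 CPM in 3w KO, against 389 to 395 in 3w control, and 2004 to 2035 in 1w KO, against 1103 to 1120 in 1w control, with Tcf21 listed at 0 in every library. Endothelial markers were higher in 8 of 10 cases and lower in 1 at 3w, and higher in 10 of 10 at 1w. They summed to 443 to 453 CPM in 3w KO, against 373 to 390 in 3w control, and to 1102 to 1109 in 1w KO, against 900 to 915 in 1w control. Macrophage markers were higher in 8 of 10 cases and lower in 1 at 3w, and higher in 10 of 10 at 1w, with sums of 133 to 138 CPM in 3w KO, against 92.0 to 93.1 in 3w control, and 145 to 152 in 1w KO, against 46.3 to 47.3 in 1w control. Epicardial markers went in opposite directions, with 6 of 8 lower in 3w KO and 7 of 8 higher at 1w. Their sums were 15.9 to 17.0 CPM in 3w KO, against 26.9 to 28.4 in 3w control, and 60.8 to 62.5 in 1w KO, against 33.7 to 34.0 in 1w control. No marker of the last 3 lists was at 0 in any library. Cardiomyocyte markers were lower in 7 of 8 cases at 3w, and lower in 6 and higher in 1 at 1w.

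**Figure D4:**
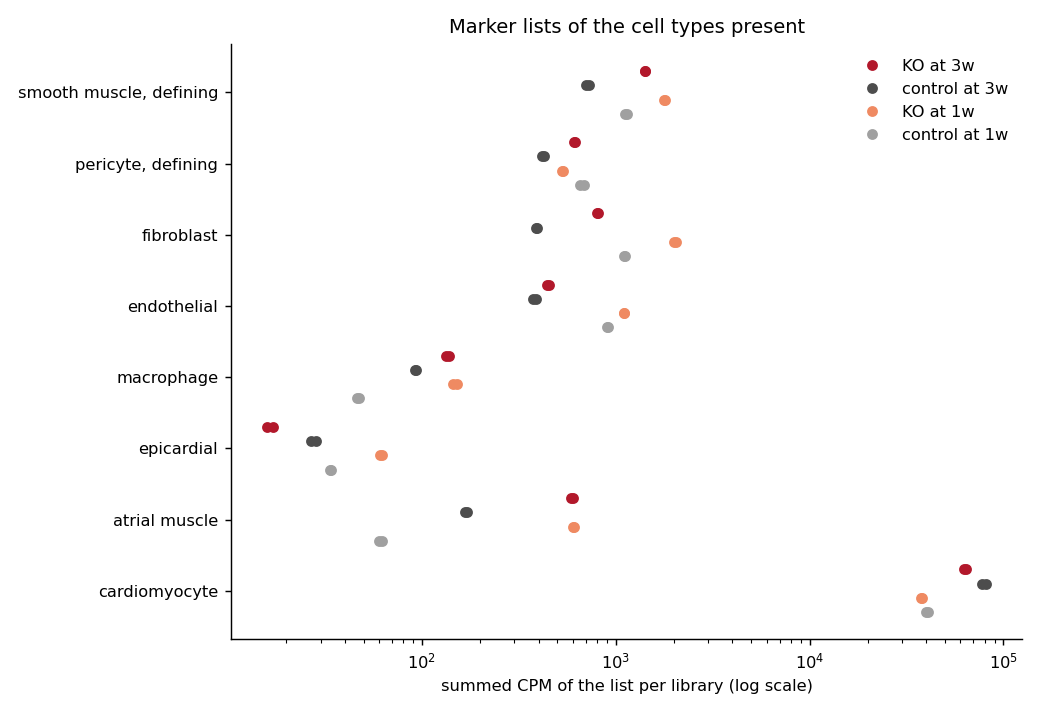
Summed TMM-scaled CPM of each marker list (horizontal axis, log scale) per library and group; points are libraries. The fibroblast sum and the smooth muscle sum, nearly all of it Acta2, are higher in KO than in control at both ages. The pericyte sum, most of it Abcc9 and Rgs5, is higher in 3w KO and lower in 1w KO. Among its other genes at 1w, Cspg4 and Notch3 were higher in KO and Pdgfrb was not called. The epicardial sum is lower in 3w KO and higher in 1w KO.

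The defining smooth muscle genes (Myh11, Acta2, Tagln and Cnn1, nearly all of it Acta2) summed to 1414 to 1418 CPM in 3w KO, against 699 to 731 in 3w control, and to 1774 to 1789 in 1w KO, against 1111 to 1149 in 1w control. The defining pericyte genes, of which Abcc9 and Rgs5 give most, summed to 612 to 613 CPM in 3w KO, against 416 to 428 in 3w control, and to 530 to 535 in 1w KO, against 654 to 687 in 1w control. The fibroblast, macrophage and endothelial lists were higher in 1w KO. Of the 5 defining pericyte genes 2 were higher there (Cspg4 and Notch3), 2 were lower (Rgs5 and Abcc9) and Pdgfrb was not called. Of 6 atrial muscle markers 2 were higher and 4 lower in 3w KO, and all 6 were higher at 1w, with sums of 591 to 605 CPM in 3w KO, against 167 to 172 in 3w control, and 599 to 606 in 1w KO, against 60.4 to 62.2 in 1w control. Nppa alone gave 583 CPM of the sum in 3w KO, against 102 in 3w control, while Myl7, Myl4, Sln and Bmp10 were lower in 3w KO, with Bmp10 at 0.0699 CPM against 20.3 in 3w control. At 1w Bmp10 averaged 180 CPM in KO, against 0.118 CPM in control, and Sln 16.1 CPM, against 0.690 CPM. Myl7 averaged 94.6 CPM in 1w KO and 7.92 CPM in 1w control, and Myl4 114 and 11.5 CPM. Erythroid markers were lower in KO in 3 of 4 cases at 1w, and higher in 2 at 3w. Of 4 Schwann cell markers 2 were higher at either age. The part of any other cell type in the member values was not tested.

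Across the 8 libraries most members were closely correlated with each other, and Abcc9 only with Myocd. Over log2 CPM (prior count 2), Pdgfrb and Notch3 had a Pearson r of 0.99, Cnn1 and Notch3 0.99, and Myh11 and Cnn1 0.98. Acta2 and Cspg4 had 0.95. Myocd and Abcc9 had 0.86 with each other, while Abcc9 had between -0.341 and 0.275 with the remaining 8. These values describe 4 groups of 2 libraries that share age and KO status, and come with no test. Among 8731 other genes with a mean of at least 5 CPM, the 5 most like Myh11 were Hip1r, Tpm2, Mylk, Zmat3 and Prkcd, with r between 0.9958 and 0.9974. Tpm2 and the myosin light chain kinase gene Mylk are contractile smooth muscle genes on the list above. Tpm2 averaged 21.5 CPM in 3w KO, 3.03 in 3w control, 48.3 in 1w KO and 20.5 in 1w control. The 5 most like Pdgfrb were Ror1, Krt18, Afdn, Sox18 and Shroom4, with r between 0.9967 and 0.998. None of these is on the list of other pericyte genes.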

How the data were processed

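Per the labels' protocols, total RNA went into SMART and Nextera XT libraries. Per the submitters' processing notes, the authors used FastQC, MultiQC, HISAT2, featureCounts and DESeq2 with mm10. The sources used here give no versions, annotation or strand setting. The deposited values are whole-number gene counts and were used as raw counts. GENCODE M21 named 54723 of 54752 identifiers.

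The counts were analysed in R 4.3.3 with edgeR 4.0.16: filterByExpr (minimum count 10, minimum total 15), TMM factors (0.759 to 1.23), and a robust quasi-likelihood model holding all 4 groups (4 residual degrees of freedom). The code was also run on counts simulated from the fit's own means and spread. Such a run cannot check the scaling of the real libraries or that spread. The Benjamini-Hochberg adjustment covered the 14665 genes tested, and genes were called under 0.05. DESeq2 1.42.0 was an alternative, beside other scalings, no filter, an additive model, a replicate block and leaving out each library. Libraries of a group differed by more than sampling noise (chi-square per gene 1.46 to 6.89), which cannot show whether they were separate mice. They were counted separately. The fit's common coefficient of variation beyond sampling noise was 3.03%, and the small p-values rest on that spread. Within an age the labels give each replicate number an injection day shared by KO and control, but deviations of same-numbered libraries hardly correlated (-0.022 to 0.0083 over all pairs of groups).

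The members, lists and tests were chosen with earlier results of these data known. All members are named. From each related list up to 3 called genes with the largest change are named, and for Myh11 and Pdgfrb the 5 most alike genes. Some genes of these lists are named outside that rule, mainly ones that went against most of their list.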

Additional observations from a re-analysis of the deposited data

Results flagged for a closer look

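For 9 of the 10 members the KO effect differed between 3w and 1w in the test of the difference itself (edgeR's quasi-likelihood test, adjusted over all genes). Over all genes, 35.6% were called either way in this test and 17.6% in the direction of these members. The KO effect at 3w less that at 1w, on the log2 scale, was 1.93 for Myh11, 0.32 for Acta2, 3.16 for Cnn1 and 0.97 for Myocd. It was 1.11 for Pdgfrb, 1.39 for Rgs5, 0.45 for Cspg4, 2.24 for Notch3 and 0.79 for Abcc9. The adjusted p ran from 1.4e-32 for Rgs5 to 5.7e-05 for Cspg4. Each contrast rests on 4 groups of 2 libraries that also split by Y-linked transcripts.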

How the results depend on the processing

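Of 930 values of single members under other settings, 904 kept their direction and their side of the threshold. In 15 the call was lost, in 3 it was gained and in 12 the sign changed, with 4 of these counted under both sign and call. Leaving out 1 library at a time, with a lone library taken to vary like the others, gave 9 to 10 called members for KO against control at 3w and 8 to 9 at 1w. The other comparisons gave the same count each time: 10 over both ages, 8 for 3w against 1w in KO, 10 in control and 9 for the difference of KO effects. The additive fit called 5 members over both ages in place of 10, and 4506 genes in place of 7746. DESeq2 called 9 members at 3w and 7 at 1w. Over all genes it called 3755 in place of 6305 at 1w, and 3119 in place of 5215 for the difference of KO effects. Scaling by total counts alone, chosen after seeing the data, moved the median of all genes to 0.25 for KO at 3w, 0.12 for KO at 1w, 0.19 over both ages, -0.45 and -0.60 with age in KO and in control, and 0.15 for the difference of KO effects. It reversed Myocd (0.035) and Abcc9 (0.036) over both ages, and Myocd (-0.082) and Cspg4 (-0.42) with age in KO. Uncalled values near 0 also changed sign. Pdgfrb at 1w ranged from -0.0040 to 0.035 when 1 library was left out, with -0.0039, -0.0040 and -0.0035 among the negative values. Cspg4 with age in KO ranged from -0.016 to 0.078, with -0.000591 without 1w KO replicate 2, and was -0.025 without the low-count filter. The cause was not tested. With replicate number as a block across all groups, the member counts were 10 and 9 for KO at 3w and 1w. A block within each age by labelled injection day, chosen after seeing the data, gave the same counts, and neither block changed a member's call. Depth limits Tagln and Cnn1.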
